A study of Mus musculus and Rattus norvegicus with 85 samples.

Results

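The genes of antigen presentation by major histocompatibility complex (MHC) class II were followed in the lungs of mice and rats that had inhaled chloroprene, a chlorinated diene used to make synthetic rubber. On the mouse array the members were all probe sets annotated to Ciita, Cd74, H2-Aa, H2-Ab1, H2-Eb1 and H2-DMa. On the rat array they were all those annotated to Ciita, Cd74, RT1-Da, RT1-Ba, RT1-Bb and RT1-DMa. Probe sets were taken by gene symbol, and the symbols were chosen with earlier results of these data known. The members came to 25 of 76200 probe sets, 14 in the mouse and 11 in the rat, for 10 distinct symbols. A filter on low signal kept 21 of them, 12 in the mouse and 9 in the rat, and left all 6 genes of each species measured among 13796 mouse and 11010 rat genes. The probe sets below the filter were a pair for mouse Ciita and 1 each for rat RT1-Ba and RT1-Bb.

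MHC class II molecules are heterodimers of an α and a β chain that carry peptides from the endocytic pathway to the cell surface, where helper T cells read them. The invariant chain, encoded by Cd74, escorts new dimers and blocks their groove, and the DM heterodimer exchanges the remnant of the invariant chain for peptide. Transcription of the whole set depends on the co-activator Ciita, which binds no DNA itself and is recruited by factors seated on the X and Y boxes of class II promoters. In the lung, B cells, dendritic cells, macrophages and alveolar type 2 cells are known to carry class II.

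Female B6C3F1/Crl mice breathed chloroprene for 5 or 15 exposure days at 0.3, 2, 13 and 90 ppm, and at 0 ppm for 5 days only. Female F344/NCrl rats (F334/NCrl in the strain label) breathed 5, 30, 90 or 200 ppm for 5 or 15 exposure days. All animals were 10 weeks old at the first exposure, and the labels name no engineered allele in any group. Air was the vehicle, and each of the 17 groups held 5 animals with 1 array each of right lung RNA. A 0 ppm group was analysed here only for the mouse at 5 days, so the 0.3 ppm mice at 15 days and the 5 ppm rats served as references. A difference already present at those concentrations was not measured. Each difference is given in log2 units, exposed minus reference, with the standard error from a limma fit that took in all genes of a species (n = 5 animals per group). A gene is said to rise or fall where its Benjamini-Hochberg adjusted p over all genes tested was under 0.05. The concentrations of one species and time were all set against the same 5 reference animals, whereas the 5-day and 15-day comparisons shared none.

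The arrays were comparable in scale, with medians of 7.27 to 7.37 in the mouse and 7.25 to 7.32 in the rat. Their number sets the precision, with standard errors of a difference of 0.0991 in the mouse and 0.11 in the rat for the median gene. Of 15 alveolar type 2 cell markers 14 passed the filter in the mouse and 13 in the rat, at mean signals per animal of 13.32 to 13.67 and 12.69 to 12.98, so the tissue carried lung markers at high signal throughout. For 9 mice of the 15-day groups the label on exposure duration goes against the title that placed them. Of these mice 3 were in the 0.3 ppm and 3 in the 90 ppm group, 2 at 2 ppm and 1 at 13 ppm. The 15-day differences and list counts are given with and without them, whereas group means, signal ranges and correlations include them. RNA of whole tissue was measured, so fewer cells of a type and less RNA per cell cannot be told apart.

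The promoters of several mouse class II genes carry the letters of the X and Y boxes, and the stretches from one box to the other are shown because they are the elements through which Ciita acts. RefSeq promoter sequences (GRCm38.p6) were used for 3 of the 6 mouse members, H2-Aa, H2-Eb1 and H2-DMa. Entries on the chromosome of Cd74 were left out for the listed genes, but not from the counts over all promoter entries. The letters searched, on both strands, were ATTGG for the core of the Y box, AGNNAC with ATG after 2 further bases for the X box, and TGACG for the element next to it that resembles a cyclic AMP response element. They were chosen after these sequences had been read. H2-Eb1 has an X box followed by a Y box at chr17:34305775-34305812 on the plus strand, 92 to 55 bases before the transcription start. H2-Aa has the Y box letters and a TGACG, overlapped by the same letters on the other strand, at chr17:34287867-34287919 on the minus strand, 96 to 44 bases before the start. The same arrangement as in H2-Eb1 was found in the class II genes H2-Eb2 (chr17:34325542-34325579), H2-Ob (chr17:34238817-34238852) and H2-DMb1 (chr17:34153096-34153134), all on the plus strand. Each sequence runs 5′ to 3′ on the strand of its gene, with the letters matched on either strand in capitals.
H2-Eb1: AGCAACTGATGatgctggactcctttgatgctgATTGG
H2-Eb2: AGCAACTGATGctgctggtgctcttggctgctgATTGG
H2-DMb1: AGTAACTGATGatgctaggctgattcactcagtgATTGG
H2-Ob: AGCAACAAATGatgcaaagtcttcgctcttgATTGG
H2-Aa: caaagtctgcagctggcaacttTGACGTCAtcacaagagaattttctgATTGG

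The X letters followed within 50 bases by the Y letters occurred in 42 of 32851 mouse promoter entries (0.128%), against 3.09% for the X letters, 37.4% for the Y letters and 20.8% for TGACG in any place. Among the 29 entries used, for 21 of the 28 class II pathway genes looked for, 4 had the X and Y letters in that order. These are the 4 shown above, and the distance from the first base of X to that of Y was 31 to 34 bases in them. Of the 2 entries for H2-DMa, neither had the X letters and 1 had the Y letters. A match is a description of these letters only.

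After 5 exposure days at 90 ppm, 3 of the 6 mouse class II genes fell against 0 ppm and none rose: Ciita, H2-Aa and H2-Ab1, each to about 0.78 to 0.79 of the reference signal. H2-DMa and H2-Eb1 were as far below the reference but did not pass the test, and Cd74 was closest to it. All 6 lay below 0 with a median of -0.35, beside a median of 0.01 over all genes tested; 7.35% of all genes tested were called lower and 8.99% higher. Of the 6 genes, 2 had groups that did not overlap, which was the case for 6.22% of all genes in this direction.

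The master regulator Ciita had log2 signals of 7.08, 7.33, 7.30, 7.16 and 7.52 in the 5 mice at 0 ppm and of 7.00, 6.98, 6.81, 6.82 and 6.98 in the 5 mice at 90 ppm. Every exposed mouse lay below every reference mouse. Ciita fell by 0.36 ± 0.12 (adjusted p = 0.0327), to 0.780 of the reference signal. Its probe set was near the filter of 6.67, below which lie 40% of all mouse values.

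H2-Aa encodes the α chain of the I-A molecule. Its signals were 13.17, 13.28, 13.31, 13.18 and 13.25 at 0 ppm and 12.94, 13.04, 12.80, 12.76 and 12.93 at 90 ppm, again without overlap. H2-Aa fell by 0.34 ± 0.09 (adjusted p = 0.00373). H2-Ab1, the β chain of I-A, read 11.75, 11.86, 11.70, 11.58 and 11.85 at 0 ppm and 11.59, 11.66, 11.12, 11.21 and 11.38 at 90 ppm. Here 3 of the 5 exposed mice lay below all reference mice and the other two lay inside the reference range. H2-Ab1 fell by 0.36 ± 0.11 (adjusted p = 0.0215). H2-Eb1, the β chain of the I-E molecule, read 12.23, 12.27, 12.12, 12.13 and 12.20 at 0 ppm and 12.07, 12.20, 11.60, 11.54 and 11.81 at 90 ppm. In 4 of the 5 exposed mice it was below all references and in mouse 166 inside their range, and the difference of -0.34 ± 0.13 did not pass the test (adjusted p = 0.0686).

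The invariant chain gene Cd74 read 13.60, 13.77, 13.63, 13.43 and 13.67 at 0 ppm and 13.50, 13.72, 13.37, 13.37 and 13.49 at 90 ppm. The groups overlapped broadly, and the difference was -0.13 ± 0.10 (adjusted p = 0.415). H2-DMa, the α chain of the peptide exchanger DM, read 9.86, 9.95, 9.82, 9.89 and 10.02 at 0 ppm and 9.94, 9.73, 9.16, 9.11 and 9.70 at 90 ppm. The spread at 90 ppm was wide: mice 167 and 168 were well under the other three, and mouse 165 lay inside the reference range. The difference of -0.38 ± 0.14 did not pass (adjusted p = 0.0651).

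Of these calls, that of H2-Aa held in all 10 fits that each left out 1 mouse of either group. That of Ciita was lost without reference mouse 102, 103 or 105 or exposed mouse 167 or 168, with differences from -0.35 to -0.30 and adjusted p from 0.0578 to 0.115. That of H2-Ab1 was lost without mouse 102, 105, 167 or 168 (-0.33 to -0.29, adjusted p from 0.0561 to 0.0815). The array of reference mouse 105 had a log2 difference between 3' and 5' control probe sets of 0.01. The other mice at 0 ppm were at 0.21 to 0.27. The part of this in the class II differences was not tested. H2-DMa and H2-Eb1 passed without mouse 165 (-0.48 and -0.40, adjusted p = 0.0207 and 0.0457) or mouse 166 (-0.43 and -0.43, adjusted p = 0.0490 and 0.0223). Against the 0.3 ppm mice in place of the 0 ppm mice none of the 6 was called (4.62% of all genes were called lower), and the differences lay between -0.33 and -0.10. The fit with the RNA integrity number left out the mice without one, so that 2 of the 5 reference mice remained. Those left out of the reference group were mice 101, 102 and 105. None of the 6 was called in that fit either, and Ciita, H2-Aa and H2-Ab1 were at -0.24, -0.31 and -0.21. The covariate and the loss of these mice were not tested apart.

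At lower concentrations no member was called after 5 days. The 6 differences lay between -0.16 and -0.03 at 0.3 ppm, between -0.13 and -0.02 at 2 ppm and between -0.19 and -0.07 at 13 ppm, all below 0 against the same reference mice. The share of all genes called lower was 0%, 0.138% and 0.13%, and of those called higher 0%, 1.07% and 1.17%. At 0.3 ppm limma called 0 genes in either direction and 514 (3.73%) had an unadjusted p under 0.05, none of them a member. An unadjusted p under 0.05 was found for 1 member in these 3 comparisons, H2-Aa at 13 ppm (-0.19 ± 0.09, adjusted p = 0.354). Mouse 117 of the 0.3 ppm group was the highest of its group for all 6 genes, at 7.57 for Ciita, 12.55 for H2-Eb1 and 10.33 for H2-DMa.

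**Figure D1:**
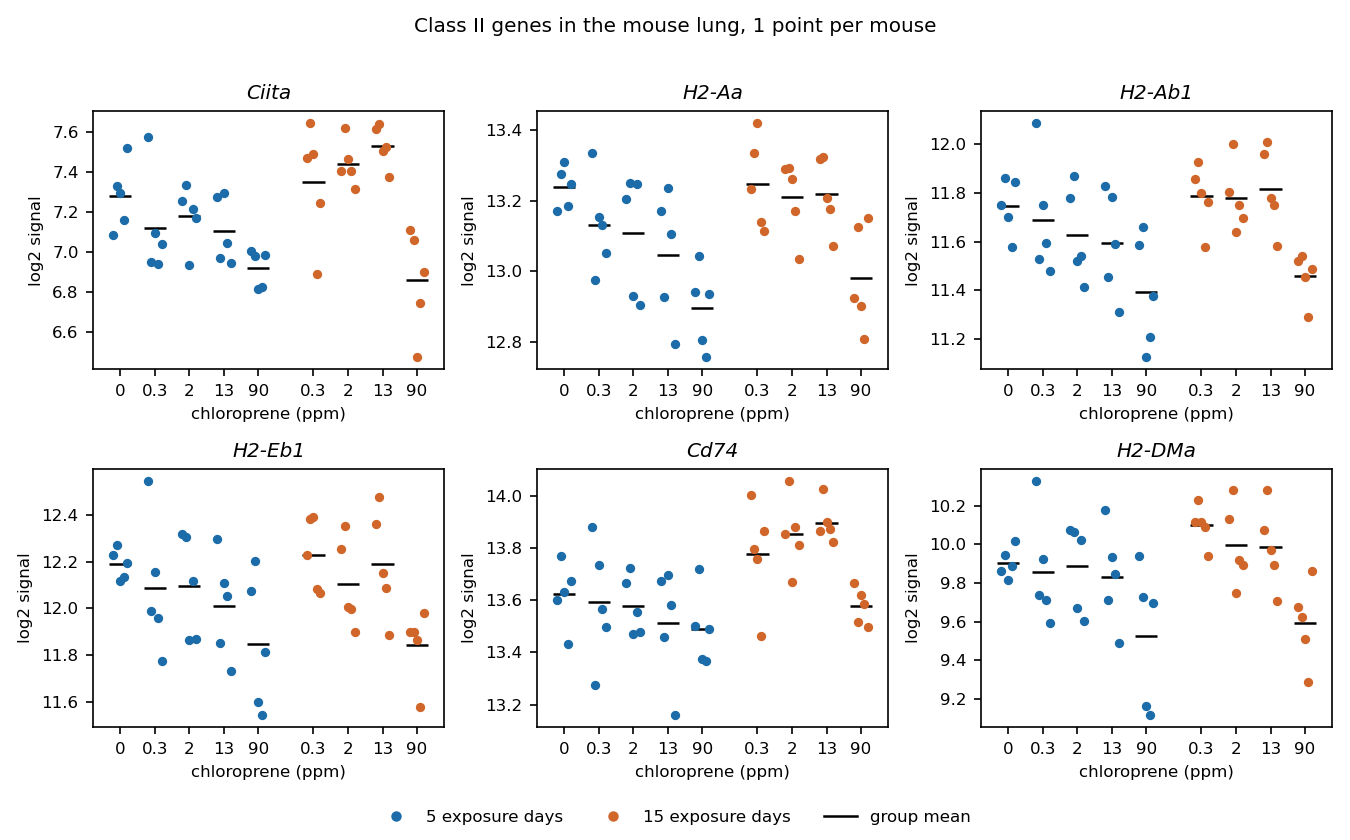
Log2 signal of the 6 class II genes (1 panel each, with its own axis) in every mouse, by chloroprene concentration in ppm, for 5 exposure days in blue and 15 in orange; black bars are group means of 5 mice. The 90 ppm group has the lowest mean of its time in every panel, and for Ciita at 5 days all 5 exposed mice (6.81 to 7.00) lie below all 5 mice at 0 ppm (7.08 to 7.52).

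After 15 exposure days at 90 ppm, again 3 of the 6 mouse genes fell and none rose, this time against 0.3 ppm: Ciita, H2-DMa and H2-Aa. All 6 were below 0 with a median of -0.36 (all genes tested -0.01), and 3.29% of all genes were called lower and 4.68% higher. For 3 of the 6, H2-DMa, H2-Ab1 and H2-Eb1, the groups did not overlap, as for 2.1% of all genes in this direction.

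Ciita read 7.47, 7.65, 7.49, 6.89 and 7.24 at 0.3 ppm and 7.11, 7.06, 6.47, 6.74 and 6.90 at 90 ppm. It fell by 0.49 ± 0.12 (adjusted p = 0.00604), to 0.711 of the reference signal. Only 2 of the 5 exposed mice were below all references, since reference mouse 128 was itself low at 6.89. The I-A chains differed in their spread. H2-Aa read 13.23, 13.33, 13.42, 13.14 and 13.11 at 0.3 ppm and 12.92, 13.12, 12.90, 12.81 and 13.15 at 90 ppm, with 3 exposed mice below all references, and fell by 0.27 ± 0.09 (adjusted p = 0.0451). H2-Ab1 read 11.86, 11.93, 11.80, 11.58 and 11.76 at 0.3 ppm and 11.52, 11.54, 11.45, 11.29 and 11.49 at 90 ppm, without overlap, yet the difference of -0.33 ± 0.11 did not pass (adjusted p = 0.0611). The β chain of I-E came next. It read 12.23, 12.38, 12.39, 12.08 and 12.07 at 0.3 ppm and 11.90, 11.90, 11.86, 11.58 and 11.98 at 90 ppm, also without overlap, and differed by -0.39 ± 0.13 (adjusted p = 0.0619).

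H2-DMa read 10.12, 10.23, 10.12, 10.09 and 9.94 at 0.3 ppm and 9.68, 9.63, 9.51, 9.28 and 9.86 at 90 ppm. All exposed mice were below all references, and H2-DMa fell by 0.51 ± 0.14 (adjusted p = 0.0206), to 0.704 of the reference signal. Cd74 read 14.00, 13.80, 13.76, 13.46 and 13.87 at 0.3 ppm and 13.67, 13.52, 13.62, 13.58 and 13.50 at 90 ppm. Reference mouse 128 (13.46) lay below all exposed mice and the other 4 reference mice above them all, and the difference was -0.20 ± 0.10 (adjusted p = 0.251).

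The fall of Ciita was called in all 10 fits that left out 1 mouse. That of H2-DMa was lost without exposed mouse 180 (-0.43, adjusted p = 0.0960) or reference mouse 126 (-0.47, adjusted p = 0.0604). That of H2-Aa was lost without mouse 177, 179 or 180 or reference mouse 125, 126 or 127 (-0.27 to -0.22, adjusted p from 0.0724 to 0.171). Without reference mouse 128, H2-Ab1 passed as well (-0.38, adjusted p = 0.0330). Without the mice whose labels conflict on duration, 2 mice remained in each of the 0.3 and 90 ppm groups. None of the 6 members was then called, and 530 genes were. The differences were -0.43 for Ciita, -0.55 for H2-DMa, -0.31 for H2-Aa, -0.41 for H2-Ab1, -0.41 for H2-Eb1 and -0.31 for Cd74 (adjusted p from 0.191 to 0.420). Without the mice whose number carries a letter, 3 mice remained in each group and none of the 6 was called either. The differences were then -0.43 for Ciita, -0.56 for H2-DMa and -0.28 for H2-Aa. These were mice 126, 127, 178 and 181, with an A that no mouse at 2 or 13 ppm carried. Their arrays had log2 differences between 3' and 5' control probe sets of 0.03 to 0.05. The other mice of the 0.3 and 90 ppm groups were at 0.19 to 0.35. The part of this in the class II differences was not tested.

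Mean signals over the 5 mice of a group are given from the lowest concentration to 90 ppm, starting at 0 ppm after 5 days and at 0.3 ppm after 15. For Ciita they were 7.28, 7.12, 7.18, 7.10 and 6.92 (SD 0.09 to 0.26) after 5 days and 7.35, 7.44, 7.53 and 6.86 (SD 0.10 to 0.29) after 15. The order of Ciita at 5 days followed the concentration except that 2 ppm lay above 0.3 ppm. For H2-Aa they were 13.24, 13.13, 13.11, 13.05 and 12.90 (SD 0.06 to 0.18) after 5 days and 13.25, 13.21, 13.22 and 12.98 (SD 0.11 to 0.15) after 15. The means of H2-Ab1 were 11.75, 11.69, 11.63, 11.59 and 11.39 (SD 0.12 to 0.25) after 5 days and 11.79, 11.78, 11.82 and 11.46 (SD 0.10 to 0.17) after 15. As with H2-Aa, they stood in the order of concentration at 5 days. H2-Eb1 had means of 12.19, 12.09, 12.10, 12.01 and 11.85 (SD 0.06 to 0.29) after 5 days and 12.23, 12.10, 12.19 and 11.84 (SD 0.15 to 0.23) after 15. At 15 days the lower concentrations of all these chains lay closer to each other than to 90 ppm. Cd74 had means of 13.62, 13.59, 13.58, 13.51 and 13.49 (SD 0.11 to 0.23) after 5 days and 13.78, 13.85, 13.90 and 13.58 (SD 0.07 to 0.20) after 15, and H2-DMa of 9.91, 9.86, 9.89, 9.83 and 9.53 (SD 0.08 to 0.37) after 5 days and 10.10, 9.99, 9.99 and 9.59 (SD 0.10 to 0.21) after 15. The difference between the reference and 90 ppm was smallest for Cd74 of the 6 genes at both times.

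After 15 days the means at 90 ppm lay apart from those of the lower concentrations, as a description without a test of 90 against 13 ppm. No member was called at 2 ppm (differences from -0.13 to 0.09, 0% of all genes called lower and 0.109% higher) or 13 ppm (from -0.11 to 0.18, 0.00725% lower and 0.319% higher), and Ciita, Cd74 and H2-Ab1 were highest at 13 ppm. Without the mice of conflicting duration none was called at either, with differences from -0.06 to 0.09 at 2 ppm and from -0.06 to 0.15 at 13 ppm. When the group means of a gene were put in order, 90 ppm was the lowest for all 6 genes at both times. At 15 days the gap from 90 ppm to the next group was larger than the SD of either group for all 6 genes, while no gap among 0.3, 2 and 13 ppm was. For Cd74 the gap was barely larger, at 0.1997 against an SD of 0.1982. These means include the mice of conflicting duration. At 5 days only the gap of Ciita between 13 ppm (7.10 ± 0.17) and 90 ppm (6.92 ± 0.09) was larger than both SDs, so neighbouring concentrations of the other 5 genes did not differ beyond their spread. Over both times 7 of 42 neighbouring means of the mouse differed by more than the larger SD.

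Whether the change from 0.3 to 90 ppm differed between 15 and 5 days was tested on the difference itself. No member passed (0.0435% of all genes were called lower and 0% higher). The differences between times were -0.29 ± 0.17 for Ciita, -0.17 ± 0.20 for H2-DMa, -0.15 ± 0.19 for H2-Eb1, -0.10 ± 0.14 for Cd74 and -0.03 ± 0.12 for H2-Aa, with adjusted p from 0.743 to 0.953 over the 6 genes. Without the mice of conflicting duration they lay between -0.23 (Ciita) and -0.07 (H2-Aa), and again none passed.

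**Figure D2:**
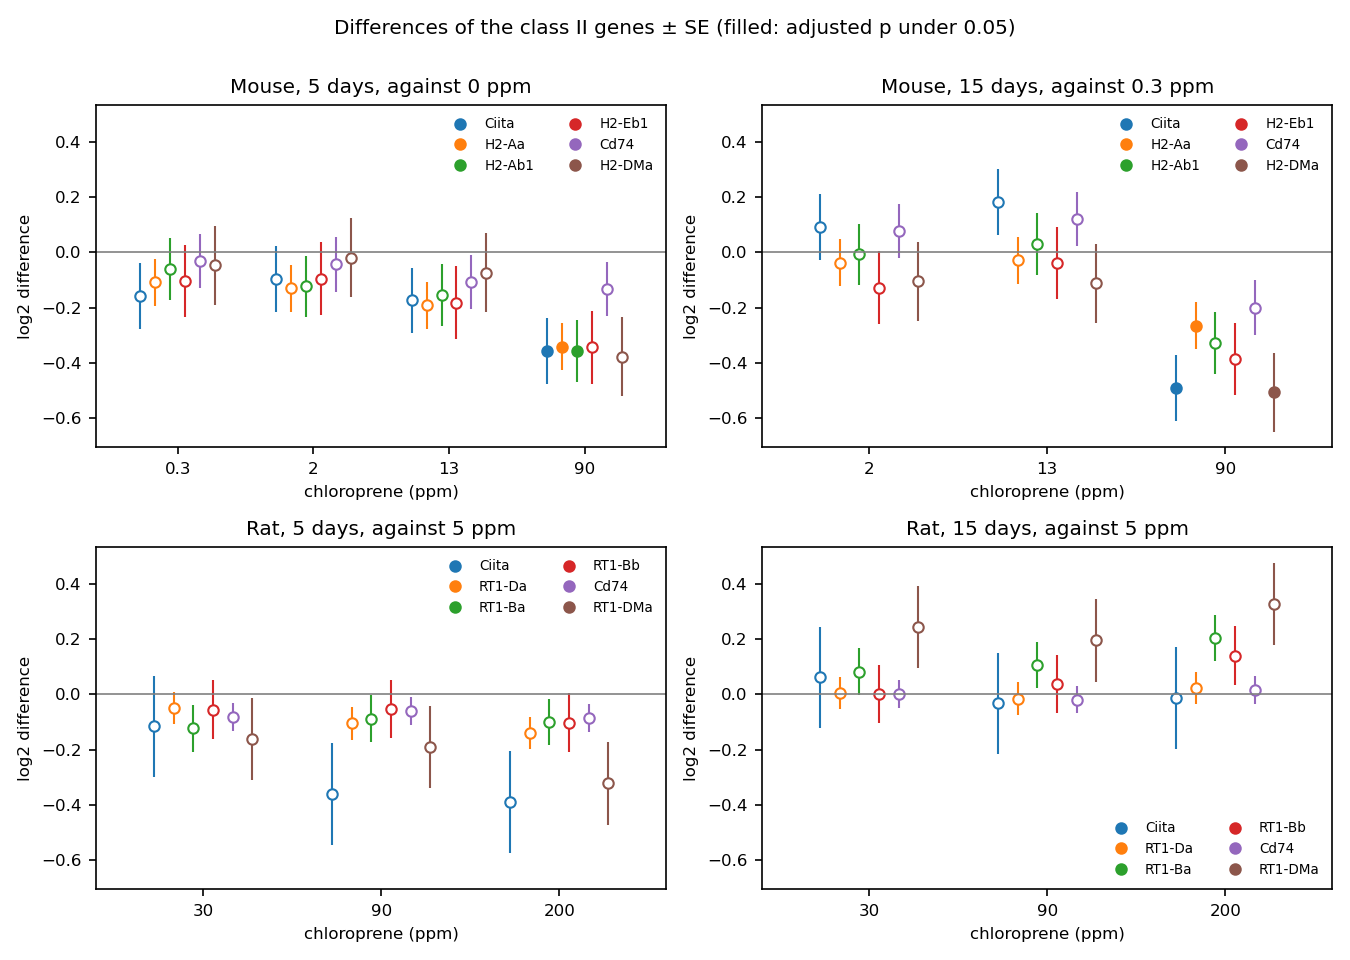
Log2 differences from the reference group (points) with their standard errors (bars) for each class II gene and concentration in ppm, in mice and rats after 5 and 15 exposure days; n = 5 animals per group, filled points have an adjusted p under 0.05. Filled points occur only in the mouse at 90 ppm (3 genes at each time), and all 6 rat genes lie below 0 at 200 ppm after 5 days but between -0.01 and 0.33 after 15.

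The other probe sets of the mouse members had the same sign. Each of the 8 that did not represent its gene was below 0 at 90 ppm at both times. For H2-Aa these were 1452431_s_at (-0.50 at 5 days and -0.37 at 15), 1438858_x_at (-0.26 and -0.45) and 1443783_x_at (-0.39 and -0.67). The suffixes s and x mark probe sets that can bind related transcripts, so signals of near-identical class II genes may be mixed in them. This limit also holds for the probe sets that stood for H2-Aa (1435290_x_at) and H2-Ab1 (1450648_s_at) in the results above. Tested among all kept probe sets, the H2-Aa probe set 1452431_s_at was called at 5 days (adjusted p = 0.00394; 6.45% of probe sets lower), and 1438858_x_at, 1443783_x_at and the H2-DMa probe set 1459872_x_at (-0.38) at 15 days (adjusted p = 0.0294, 0.0426 and 0.0171; 2.41% lower). Without the mice of conflicting duration none of them was called at 15 days, with differences of -0.49 for 1438858_x_at, -0.65 for 1443783_x_at and -0.48 for 1459872_x_at (adjusted p = 0.325, 0.429 and 0.111). The H2-Ab1 probe sets 1425477_x_at and 1451721_a_at differed by -0.38 and -0.45 at 5 days and by -0.40 and -0.47 at 15 without being called.

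The rest of the class II pathway in the mouse was read from a list of 22 genes, of which 20 were measured. After 5 days at 90 ppm 9 of the 20 fell and none rose, with a median of -0.23, beside 7.35% of all genes called lower and 8.99% higher. Marchf1, a ubiquitin ligase that takes class II off the surface, fell by 0.70 ± 0.15 (adjusted p = 0.000868). H2-Ob, the β chain of DO, which restrains DM in B cells, fell by 1.45 ± 0.32 (adjusted p = 0.00120), and the co-stimulatory receptor Cd40 by 0.57 ± 0.13 (adjusted p = 0.00185). Named after their values were seen, the DM β chain H2-DMb2 (-0.65 ± 0.20), the DO α chain H2-Oa (-0.52 ± 0.19) and the invariant chain protease Ctss (-0.24 ± 0.08) also fell. Of the factors of the X and Y boxes, given for their role, the Y box subunit Nfya fell by 0.25 ± 0.08 at 5 days and by 0.26 ± 0.08 at 15. It was the only one of the 20 to pass at 15 days, when the list's median was -0.08 and 3.29% of all genes were called lower and 4.68% higher. The factors on the X box did not pass: Rfx5 was at -0.22 ± 0.13 and -0.05 ± 0.13, Rfxap at 0.07 ± 0.06 and 0.06 ± 0.06 and Rfxank at -0.09 ± 0.09 and -0.09 ± 0.09. The protease Ctsl and Cd40 did not pass at 15 days (0.15 ± 0.05 and -0.37 ± 0.13).

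Class I presentation and the interferon gamma pathway, which induces Ciita, were set beside the members. The counts in these and the cell marker lists stand beside 7.35% of all genes called lower and 8.99% higher at 5 days, and 3.29% and 4.68% at 15. Of 14 measured class I genes, 4 fell and 0 rose at 5 days (median -0.18) and 3 fell and 0 rose at 15 (median -0.22). They included the immunoproteasome genes Psmb10 (-0.42 ± 0.12 and -0.42 ± 0.12) and Psmb8 (-0.42 ± 0.13 and -0.41 ± 0.13) at both times. Nlrc5, the class I counterpart of Ciita, fell at 5 days (-0.57 ± 0.18), and Psmb9 at 15 days (-0.48 ± 0.14). Of 10 measured genes of the interferon gamma pathway 2 fell and 0 rose at each time. The interferon-induced GTPase Gbp2 fell at both (0.69 ± 0.12 and 0.58 ± 0.12), with the receptor chain Ifngr2 at 5 days (0.40 ± 0.13) and the adhesion molecule Icam1 at 15 (0.30 ± 0.07). Ifng itself was below the filter.

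B cells and dendritic cells were read from a list of markers each. Of 13 measured B cell markers 12 fell at 5 days and 1 at 15, with medians of -0.70 and -0.47. The mean signal of the B cell markers per mouse was 8.04 to 8.30 at 0 ppm and 6.94 to 7.39 at 90 ppm after 5 days, without overlap. At 2 ppm and 5 days it was 7.12 to 7.77, also without overlap with 0 ppm. At 0.3 and 13 ppm it was 7.12 to 8.23 and 7.12 to 8.08, with overlap. After 15 days it was 7.43 to 8.28 at 0.3 ppm and 7.31 to 7.60 at 90 ppm, with overlap. Ms4a1, the CD20 antigen, was at -1.74 ± 0.30 at 5 days, the scaffold Bank1 at -1.42 ± 0.24 and -0.71 ± 0.24 (the latter not called). The transcription factor Spib fell at both times (1.06 ± 0.22 and 0.76 ± 0.22). Cr2 was below the filter. Of 12 dendritic cell markers 4 fell at 5 days and 3 at 15, among them Ccr7 (-1.11 ± 0.28 at 5 days), Cd209a (-0.43 ± 0.11 and -0.43 ± 0.11) and Itgax (-0.39 ± 0.11 at 15 days). Their mean per mouse was 8.20 to 8.36 against 7.83 to 8.09 at 5 days, without overlap, and 8.07 to 8.37 against 7.83 to 8.14 at 15 days, with overlap. The part of these cells in the fall of the class II genes was not tested.

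T cells of the mouse carry no class II themselves, and 6 of their 11 markers fell at 5 days (median -0.54; Cd3g -1.20 ± 0.22, Cd8b1 -0.76 ± 0.17) and none at 15 (median -0.23). Their mean per mouse was 7.95 to 8.06 at 0 ppm and 7.30 to 7.63 at 90 ppm after 5 days. At 2 ppm it was 7.60 to 7.88, also below all mice at 0 ppm. At 0.3 and 13 ppm it was 7.53 to 8.32 and 7.62 to 8.12, with overlap. Macrophages were read from a pair of lists. Of 13 alveolar macrophage markers 2 fell at each time, Siglecf (-0.74 ± 0.17 and -0.83 ± 0.17) and Abcg1 (-0.30 ± 0.08 and -0.28 ± 0.08), and the median was 0.07 at 5 days and -0.09 at 15. Of 14 markers of monocytes and interstitial macrophages 2 rose and 2 fell at 5 days and 1 rose and 2 fell at 15. The scavenger receptor Cd163 rose at both times (1.02 ± 0.23 and 0.93 ± 0.23) and Treml4 was at -0.82 ± 0.26 at 15 days. Of 14 alveolar type 2 markers 1 rose and 5 fell at 5 days and 1 rose and 2 fell at 15. The chemokine Cxcl15 was at -0.51 ± 0.05 and -0.27 ± 0.05, and Ctsh, a protease of these cells, rose by 0.47 ± 0.06 and 0.25 ± 0.06. The thymus list (7 of 11 measured) and the lymph node stroma list (3 of 10 measured), meant to mark neighbouring tissue, had 0 calls at 5 days. At 15 days 1 gene of the thymus list fell, Cd1d1 (-0.37 ± 0.11), and whether it marks thymus tissue here was not tested. The part of these lists in the class II differences was not tested. Without the mice of conflicting duration, 2 mice being left in each group, 0.899% of all genes were called lower and 2.94% higher at 15 days. In that fit the calls left in these lists were the falls of Gbp2, Icam1 and Cxcl15. The medians at 15 days were then -0.03 for the other class II pathway genes, -0.24 for class I presentation genes, -0.34 for the interferon gamma pathway, -0.51 for B cell markers, -0.16 for dendritic cell markers and -0.27 for T cell markers.

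**Figure D3:**
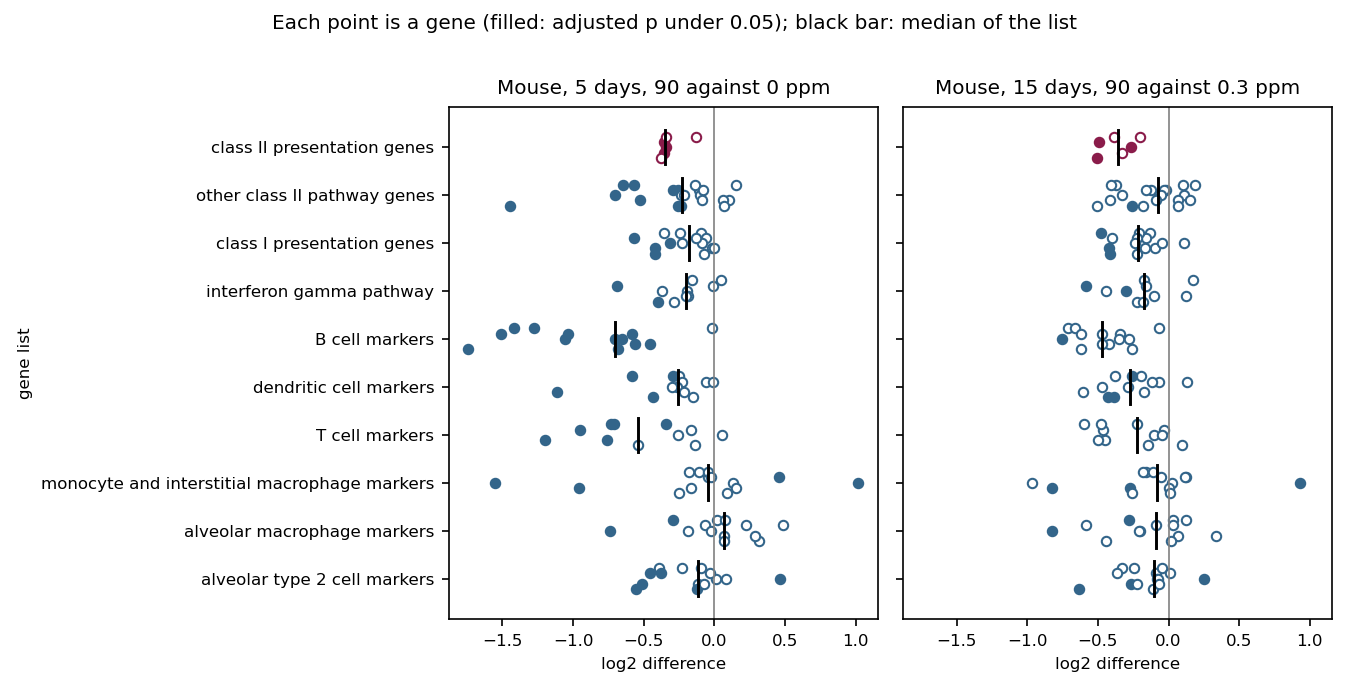
Log2 differences at 90 ppm in the mouse after 5 days (left, against 0 ppm) and 15 days (right, against 0.3 ppm), 1 point per gene in rows of gene lists; filled points have an adjusted p under 0.05, black bars are list medians, and the vertical spread within a row has no meaning. The 6 class II genes lie between -0.38 and -0.13 at 5 days and between -0.51 and -0.20 at 15, and the B cell markers have medians of -0.70 and -0.47.

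In the rat no class II gene was called in any of the 6 comparisons with 5 ppm. After 5 days at 200 ppm all 6 were below 0, with a median of -0.12, but so was the median of all genes tested (-0.14). At that concentration 31.6% of all genes were called lower and 4.68% higher. After 15 days at 200 ppm the members' median was 0.08 (all genes tested -0.01; 0.318% called lower and 0.5% higher). Groups overlapped for all 6 genes in all 6 comparisons. Of all genes, 13.5% at 200 ppm and 5 days and 1.72% at 15 days had exposed rats that all lay below the references.

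Rat Ciita read 8.98, 8.40, 8.24, 8.14 and 7.80 at 5 ppm and 8.08, 7.90, 8.10, 7.85 and 7.68 at 200 ppm after 5 days. Rat 217 at 8.98 was far above the other reference rats, and rat 222 at 7.80 lay among the exposed. The difference was -0.39 ± 0.18 (adjusted p = 0.0905), and -0.01 ± 0.18 after 15 days (adjusted p = 0.983). The 15-day signals were 8.11, 8.22, 8.32, 8.47 and 7.96 at 5 ppm and 8.76, 8.07, 7.94, 7.66 and 8.58 at 200 ppm. The 15-day groups thus overlapped fully, the exposed one being the wider.

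RT1-DMa, the rat counterpart of H2-DMa, read 10.24, 9.83, 9.65, 9.71 and 9.46 at 5 ppm and 9.51, 9.31, 9.71, 9.64 and 9.10 at 200 ppm after 5 days. This was a difference of -0.32 ± 0.15 (adjusted p = 0.0821). After 15 days it read 9.67, 9.67, 9.58, 9.58 and 9.33 at 5 ppm and 10.23, 9.85, 9.74, 9.56 and 10.12 at 200 ppm. This was a difference of 0.33 ± 0.15 in the other direction (adjusted p = 0.240). At 15 days 4 of the 5 exposed rats were above all references, whereas at 5 days 2 of the 5 exposed rats were below all references. Between 15 and 5 days the change from 5 to 200 ppm differed by 0.65 ± 0.21, which passed the test (adjusted p = 0.0452). In this test 8.81% of all genes were called higher and 2.62% lower, and the median of all genes was 0.15. That call held in 8 of the 20 fits that left out 1 rat. It was lost without any of rats 217, 219, 221, 265, 266, 268, 269, 225, 227, 229, 277 and 282, with differences from 0.54 to 0.70 and adjusted p from 0.0509 to 0.133. The titles of rats 269 and 282 name the array type, unlike those of the other rats in this contrast. What this difference in title stands for is not given, and its part in the call was not tested. For the other 5 genes the differences between times were above 0 too and did not pass, RT1-Ba coming nearest (0.30 ± 0.12, adjusted p = 0.0659), and Ciita stood at 0.38 ± 0.26 (adjusted p = 0.239). The RT1-DMa call also ended with no filter on low signal (adjusted p = 0.0528), with every kept probe set tested on its own, with the RNA integrity number in the fit (0.55, adjusted p = 0.111) and with the difference between 3' and 5' control probe sets in it (0.53, adjusted p = 0.128). The fit with the RNA integrity number also left out rat 269, which had none. Without rat 269 alone and with no covariate the difference was 0.56 (adjusted p = 0.0870). RT1-Ba passed without rat 281 (0.36, adjusted p = 0.0306) or rat 222 (0.33, adjusted p = 0.0372).

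The class II chains and the invariant chain of the rat spanned a narrow range. RT1-Da, the α chain of the I-E counterpart, was at 13.69 ± 0.09 (SD, n = 5) at 5 ppm and 13.55 ± 0.10 at 200 ppm after 5 days, and the difference of -0.14 ± 0.06 did not pass (adjusted p = 0.0580). RT1-Ba and RT1-Bb, the α and β chains of the I-A counterpart, differed by -0.10 ± 0.08 and -0.10 ± 0.11 after 5 days and by 0.20 ± 0.08 and 0.14 ± 0.11 after 15 (adjusted p = 0.198 and 0.485 at 15 days). Cd74 was at 13.48 ± 0.07 and 13.39 ± 0.06 after 5 days, -0.09 ± 0.05 apart (adjusted p = 0.163), and at 13.45 ± 0.06 and 13.47 ± 0.10 after 15 days. At 30 and 90 ppm the 6 differences lay between -0.16 and -0.05 and between -0.36 and -0.05 after 5 days (0% and 19.5% of all genes called lower, 0% and 4.13% higher). At 30 ppm limma called 0 genes, and 1477 genes (13.4%) had an unadjusted p under 0.05. After 15 days they lay between 0.00 and 0.24 and between -0.03 and 0.20 (0.518% and 0.0363% lower, 1.14% and 0.272% higher). At 5 days the RNA integrity number was 9.2 to 9.3 in the 90 ppm rats and 7.3 to 8.5 in the 5 ppm rats. Concentration and RNA integrity cannot be told apart in that comparison. None of the 36 neighbouring group means in the order of a gene at a time differed by more than the larger SD. The 200 ppm group was the lowest for 5 of the 6 genes at 5 days and for none at 15. Leaving out reference rat 222 brought Ciita (-0.52, adjusted p = 0.0231), RT1-DMa (-0.40, adjusted p = 0.0315) and RT1-Da (-0.17, adjusted p = 0.0222) past the threshold at 200 ppm and 5 days. Leaving out rat 267 did so for RT1-DMa (-0.39, adjusted p = 0.04996) and RT1-Da (-0.16, adjusted p = 0.0430) and rat 265 for RT1-Da (-0.16, adjusted p = 0.0488). Without rat 222 Ciita also passed at 90 ppm (-0.49, adjusted p = 0.0314).

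Mean signals over the 5 rats of a group, at 5, 30, 90 and 200 ppm, were 8.31, 8.19, 7.95 and 7.92 (SD 0.17 to 0.44) after 5 days and 8.22, 8.28, 8.18 and 8.20 (SD 0.18 to 0.46) after 15 for Ciita. For RT1-Da they were 13.69, 13.64, 13.58 and 13.55 (SD 0.07 to 0.10) after 5 days and 13.66, 13.66, 13.64 and 13.68 (SD 0.06 to 0.10) after 15. They stood in the order of concentration at 5 days, as those of Ciita and RT1-DMa did. RT1-Ba had means of 12.53, 12.41, 12.45 and 12.43 (SD 0.12 to 0.17) after 5 days and 12.43, 12.51, 12.54 and 12.63 (SD 0.07 to 0.18) after 15, and RT1-Bb of 12.81, 12.76, 12.76 and 12.71 (SD 0.11 to 0.21) after 5 days and 12.78, 12.78, 12.81 and 12.92 (SD 0.05 to 0.27) after 15. Cd74 had means of 13.48, 13.40, 13.42 and 13.39 (SD 0.06 to 0.07) after 5 days and 13.45, 13.45, 13.43 and 13.47 (SD 0.04 to 0.10) after 15, and RT1-DMa of 9.78, 9.62, 9.58 and 9.45 (SD 0.21 to 0.31) after 5 days and 9.57, 9.81, 9.76 and 9.90 (SD 0.14 to 0.28) after 15. After 5 days the 5 ppm group had the highest mean for all 6 genes, and after 15 days the 200 ppm group had it for all but Ciita.

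Other rat probe sets did not all run with the one that represents the gene. After 5 days at 200 ppm the RT1-Ba probe sets 1381593_x_at and 1392334_at differed by 0.04 and 0.13, against -0.10 ± 0.08 for the representative, while after 15 days both were at 0.23 and no probe set was called. The Ciita probe set 1369214_a_at was at -0.11 after 5 days and 0.18 after 15. The direction of RT1-Ba at 5 days thus depended on the probe set, and with the mean of all its kept probe sets it was 0.03.

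**Figure D4:**
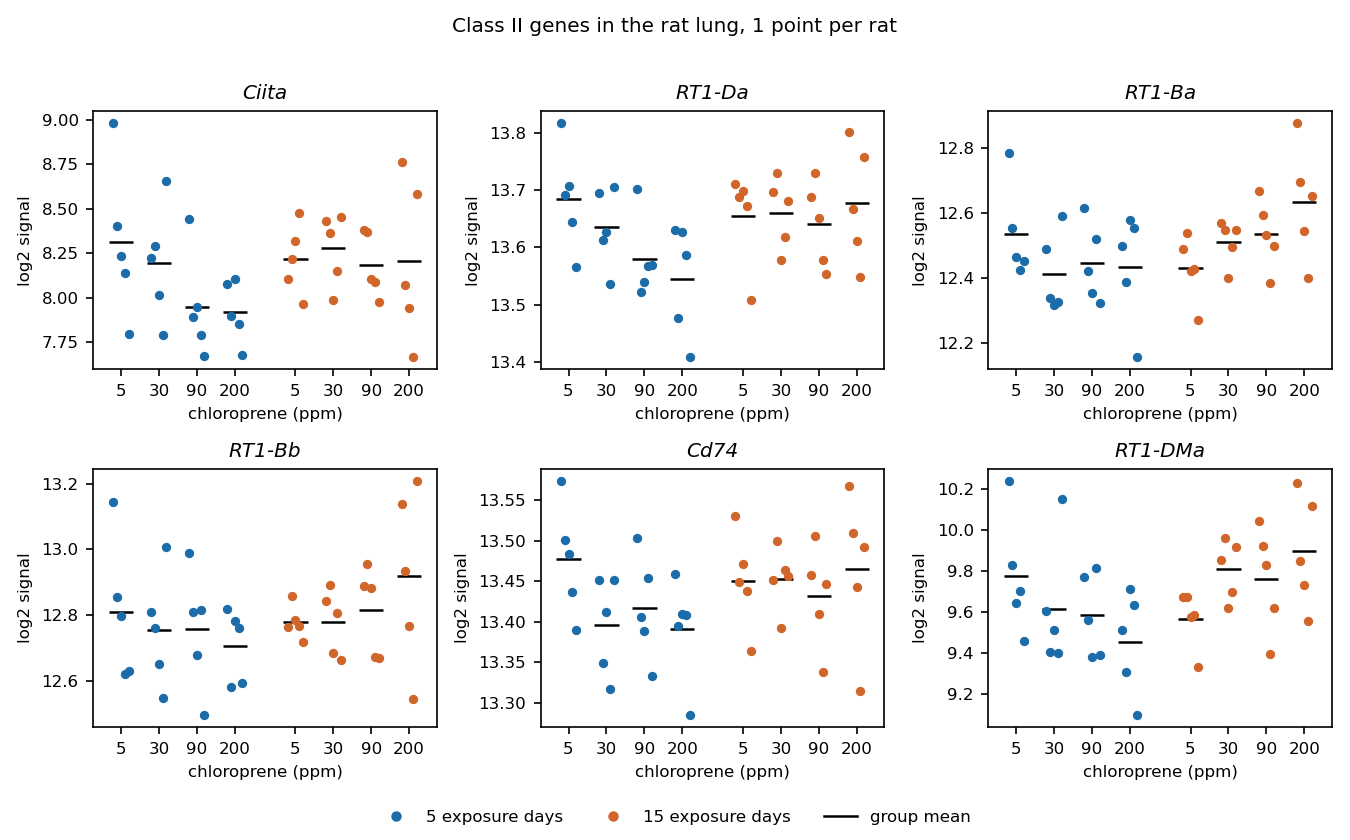
Log2 signal of the 6 rat class II genes (1 panel each, with its own axis) in every rat, by chloroprene concentration in ppm, for 5 exposure days in blue and 15 in orange; black bars are group means of 5 rats. Groups overlap in every panel; for RT1-DMa the 200 ppm rats have the lowest mean after 5 days (9.45) and the highest after 15 (9.90).

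Of 17 measured genes in the rat list of other class II pathway genes, 10 fell and 0 rose at 200 ppm after 5 days (median -0.26) and 0 were called after 15 (median -0.07), beside the 31.6% and 0.318% of all genes. The smallest p-values belonged to the co-stimulatory ligand Cd86 (-0.50 ± 0.11, adjusted p = 0.00169), the protease Ctss (-0.33 ± 0.09) and the Y box factor subunit Nfyc (-0.28 ± 0.08). RT1-DMb, the partner chain of RT1-DMa, fell by 0.33 ± 0.12 (adjusted p = 0.0302, named after its value was seen). At 15 days RT1-Db1, the partner chain of RT1-Da, was at 0.42 ± 0.11 without passing (adjusted p = 0.0634), Nfyb at -0.21 ± 0.07 and Cd86 at -0.21 ± 0.11. After 5 days 1 of 14 class I genes fell (Calr -0.19 ± 0.06), and of 12 genes of the interferon gamma pathway 1 rose (Jak1 0.29 ± 0.12) and 2 fell (Icam1 -0.35 ± 0.06, Irf2 -0.27 ± 0.09). Among markers of class II carrying cells, those that fell after 5 days were 1 of 8 for B cells (Pou2af1 -0.64 ± 0.19) and 3 of 6 for dendritic cells (Cd83 -0.60 ± 0.12, Flt3 -0.37 ± 0.10, Itgax -0.45 ± 0.13). They were 5 of 11 for alveolar macrophages (Krt79 -0.77 ± 0.17), 1 of 11 for monocytes and interstitial macrophages (Csf1r -0.47 ± 0.09) and 5 of 13 for alveolar type 2 cells (Lpcat1 -0.42 ± 0.09). After 15 days 1 dendritic cell marker fell (Itgae -0.34 ± 0.08) and no other of these. The mean per rat was 7.63 to 8.15 at 5 ppm and 7.49 to 7.89 at 200 ppm for the B cell markers and 7.57 to 8.12 and 7.36 to 7.67 for the dendritic cell markers at 5 days. Their part in the class II values was not tested. Of 12 T cell markers 1 rose at 5 days (Il7r 0.79 ± 0.26) and of 4 lymph node stroma markers 1 fell (Chst4 -1.28 ± 0.22). The single measured gene of the thymus list, Cd1d1, was at -0.18 ± 0.09.

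Within groups the class II genes went up and down together. After subtracting group means, the Pearson r between pairs of members over 45 mice ran from 0.587 (Cd74 and H2-Aa) to 0.928 (H2-Ab1 and H2-Eb1), and over 40 rats from 0.743 (Ciita and Cd74) to 0.914 (RT1-Ba and RT1-DMa). The genes outside the members that followed the mean of the members most closely in the mouse were Cd52 (r = 0.899), Myo1g (0.895), Xaf1 (0.872), Plac8 (0.867), Plbd1 (0.866), Lsp1 (0.865), Oas1a (0.865) and Gzma (0.864), where the median over all genes tested was 0.136. In the rat they were Tmem9 (0.940), Unc93b1 (0.934), Parp10 (0.926), Gm2a (0.924), Neurl3 (0.922), C1qa (0.921), RT1-DMb (0.920) and Isoc2b (0.919), over a median of 0.469 for all genes. By list, the median r in the mouse was 0.705 for class I presentation genes, 0.679 for B cell markers, 0.679 for T cell markers, 0.560 for monocyte and interstitial macrophage markers, 0.419 for dendritic cell markers, 0.416 for the interferon gamma pathway, 0.321 for the other class II pathway genes, 0.224 for alveolar type 2 markers and 0.217 for alveolar macrophage markers. In the rat it was 0.796 for monocyte and interstitial macrophage markers, 0.752 for T cell markers, 0.660 for the other class II pathway genes, 0.655 for B cell markers and 0.644 for class I presentation genes. It was 0.630 for dendritic cell markers, 0.497 for alveolar macrophage markers, 0.372 for alveolar type 2 markers, 0.361 for lymph node stroma markers and 0.269 for the interferon gamma pathway. These correlations describe arrays that share a platform, tissue sampling and normalization, and they carry no test.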

How the data were processed

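The authors deposited log2 signals per probe set for Mouse430_2 and Rat230_2 arrays, 1 table per species; per the labels' protocols, RNA was taken with Trizol and RNeasy, labelled with biotin and hybridised by the standard Affymetrix protocol. How signals were summarised and normalised is not given in the sources used here, so the log2 scale, read from the values, compares 1 probe set across arrays and not probe sets with each other. Groups came from the sample titles. Probe sets with 1 symbol (34958 mouse, 20832 rat) that exceeded the 40th percentile of their species on at least 5 arrays were kept, and the one with the highest mean stood for a gene. limma 3.58.1 in R 4.3.3 fitted 1 mean per group over all arrays of a species, with two-sided moderated tests. The tests set a difference of group means against the spread within groups, pooled over the groups of a species. With 1 array per animal, that spread holds differences between arrays as well as between animals. Described by name were all members, in each list up to 3 genes with the smallest p at the highest concentration of each time, and the 8 genes most like the members; exceptions are marked. The members and lists were chosen with earlier results of these data known. On simulated data the fit recovered 81% of genes changed by 0.5 (log2) in the mouse 90 ppm comparison at 5 days over 13796 genes and 73% in the rat 200 ppm one over 11010. The simulated noise was drawn for each gene on its own, whereas the class II genes varied together within groups. Their differences in those comparisons were smaller than 0.5, at -0.38 to -0.13 and -0.39 to -0.09. These shares therefore do not give the power for the class II genes. Alternatives were no filter or one at the 60th percentile, quantile normalization, other uses of a gene's probe sets, RNA integrity or the difference between 3' and 5' control probe sets as covariate, arrays of 1 time only, robust moderation, another reference group, and leaving out animals. The list counts and probe sets without the mice of conflicting duration were added after the data were seen.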

Additional observations from a re-analysis of the deposited data

Results flagged for a closer look

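In 5 of 102 sets of 5 animals, each a class II gene in a group, 1 animal stood apart from the rest by Dixon's test, which chance alone does in about 1 of 20. Mouse 117 at 0.3 ppm and 5 days had the highest Ciita signal of its group (7.57, the nearest 7.09). Rat 229 at 5 ppm and 15 days had the lowest RT1-Da (13.51, the nearest 13.67) and the lowest RT1-DMa (9.33, the nearest 9.58) of a reference group. Rat 249 at 90 ppm and 5 days had the highest RT1-Da (13.70, the nearest 13.57), and rat 239 at 30 ppm and 5 days the highest RT1-DMa (10.15, the nearest 9.61). The change of RT1-DMa from 5 to 200 ppm differed between 15 and 5 days by 0.65 in the rat (limma, adjusted p = 0.0452), and this difference did not pass without rat 229 or without any of 11 other rats.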

How the results depend on the processing

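Of 152 counts of class II genes called over 15 comparisons and the alternatives that did not leave out single animals, 10 moved past 1.5 times. The mouse count at 90 ppm and 5 days, 3, became 0 with the RNA integrity number as covariate and 0 against the 0.3 ppm mice. The fit with that covariate left out the mice without the number, so that 2 of the 5 mice at 0 ppm remained. The count at 90 ppm and 15 days, 3, became 0 without the mice of conflicting duration and 0 without those with a letter in the number, both fits having fewer mice. For the rat difference between times, 1 became 0 without a filter, with every kept probe set, and with either RNA covariate. Rats without an RNA integrity number were left out of the fit that used it. For the rat at 200 ppm and 5 days, 0 became 2 with the difference between 3' and 5' control probe sets as covariate (RT1-DMa -0.42, RT1-Da -0.15) and 1 with robust moderation (RT1-Da). The cause of these changes was not tested. Of 814 differences of single genes, 790 kept their call, 19 lost and 5 gained one, and 0 called ones reversed. Leaving out 1 animal gave 1 to 5 called at mouse 90 ppm and 5 days, 1 to 4 at 15 days, 0 to 3 and 0 to 1 at rat 200 and 90 ppm and 5 days, 0 to 2 for the rat difference between times, and 0 to 0 in the other comparisons. No paired analysis was possible because animal numbers differ between all groups. Signals near the filter, as for mouse Ciita, which did not pass the 60th percentile, limit what the arrays can show.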
